A study of Mus musculus with 15 samples.

Results

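Large CGRP-positive sensory neurons that innervate the skin were compared between mice whose paw had been injected with complete Freund's adjuvant (CFA), an oil emulsion of killed mycobacteria that causes a lasting local inflammation, and mice whose paw had received saline. The comparison takes 6 of the 15 arrays of the series, 3 labelled CFA paw and 3 labelled saline paw, chosen by their titles. It covers 19938 genes, each read from its probe set with the highest mean. The neurons came from lumbar dorsal root ganglia 2 to 5 of C57BL/6 mice in which the promoter of the calcitonin gene-related peptide (CGRP) drives green fluorescent protein. Dissociated cells were sorted for a diameter over 26.9 µm, for that fluorescence and for a wheat germ agglutinin tracer, which per the labels was given into the gastrocnemius muscle or the saphenous nerve 5 days before the mice were killed. The reporter, the size gate and the tracer are thus shared by CFA paw and saline paw, and the reporter marks activity of the promoter rather than the peptide itself. Per the labels the 3 samples of a group are biological replicates, the saline groups are controls, and 50 ng of RNA was amplified for each array. The number of mice behind a sample and the time between CFA and sacrifice are not given in the sources used here. The other 9 arrays hold CGRP-negative muscle neurons after saline, CFA or acid, and were used to estimate the spread and in a test of the difference between the CFA effects in paw and muscle. The title of the series names mechanosensitive proteins of myelinated afferents after inflammation as its subject.

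CGRP-positive sensory neurons are peptidergic: they release CGRP, substance P and related peptides at their endings and in the spinal cord, and many respond to painful heat, pressure or chemicals. Those with large cell bodies usually have myelinated, fast-conducting axons. In inflamed skin, nerve growth factor, prostaglandins, kinins, ATP and acid act on receptors of these endings, and growth factor signals carried back to the cell body are known to alter the expression of peptides, channels and receptors.

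Of 13 measured sensory neuron markers, all 13 had a mean above the dim limit in the paw arrays. That limit is a log2 expression of 2.446, a level exceeded by only 5% of 1190 odorant and pheromone receptor genes, which these neurons are not known to use. All 22 measured markers of large myelinated and proprioceptive neurons and 15 of 17 peptidergic markers had a group mean above it in CFA paw or saline paw. Calcb, which encodes the beta form of CGRP, had log2 expression values of 7.58, 7.47 and 7.45 on the CFA paw arrays and 6.28, 7.60 and 7.76 on the saline paw arrays, while the gene of the alpha form, Calca, is not among the genes measured and was not analysed here. Glial transcripts were present as well: 12 of 13 satellite glia markers and all 12 Schwann cell markers had a mean above the dim limit over the paw arrays, so glial RNA was measured in the sorted samples.

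Saline paw replicate 1 stood apart from the other paw arrays, and results are therefore given with and without it. The SD of log2 expression over genes, a measure of how widely an array spreads its signal, was 1.735, 1.712 and 1.659 on the CFA paw arrays and 1.423, 1.797 and 1.759 on the saline paw arrays, against 1.283 to 1.554 in muscle. The saline array with the low value thus had a range like that of a muscle array. On the leading principal component, the axis of largest variation (55.8%) over all arrays, it lay at −22.28. The muscle arrays lay at −50.51 to −5.67 and the other paw arrays at 32.47 to 58.11. It correlated with the CFA paw mean at 0.958, against 0.932 to 0.973 in muscle and 0.991 and 0.993 on the other saline arrays. The identity and RNA quality of this sample were not tested. Its correlation across genes with the other saline paw arrays was 0.9391 and 0.9449, against 0.9914 between those 2 arrays and 0.9866 to 0.9912 within CFA paw. It was the lowest of the 6 paw arrays for 30.9% of genes and the highest for 38.0%. Leaving it out turned the sign of the CFA difference for 7682 genes, 38.5% of those tested. Measured from each gene's mean over the 6 paw arrays, its median was −0.86 for sensory neuron markers and 0.247 for skeletal muscle markers. The positive value was not particular to muscle. Erythroid (0.294), endothelial and mural (0.271), lymphocyte (0.213) and fibroblast markers (0.205) were raised as well, while satellite glia markers stood at −0.306. Many differences, of neuronal and other genes, therefore move with this 1 array. Its part in the results was not tested beyond the values given with and without it.

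**Figure D1:**
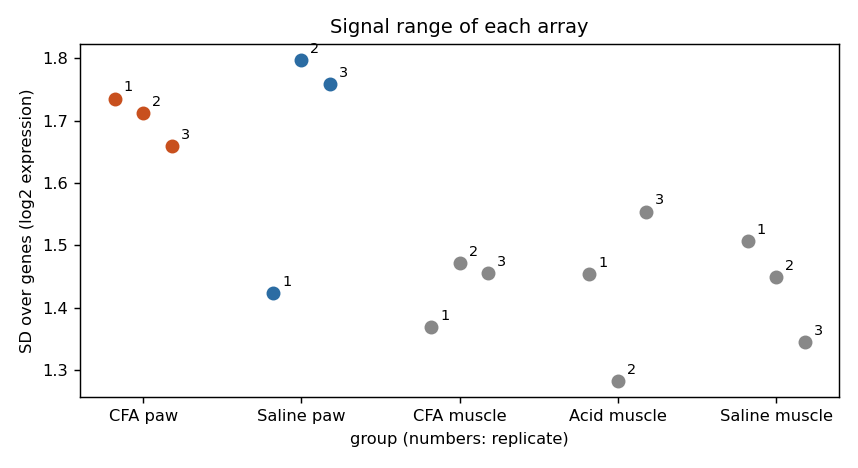
SD over genes of log2 expression (vertical axis) for each of the 15 arrays, by group (horizontal axis), 1 point per array numbered by replicate. Saline paw replicate 1, at 1.423, lies below the other 5 paw arrays (1.659 to 1.797) and within the range of the muscle arrays (1.283 to 1.554).

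No gene passed a Benjamini-Hochberg adjusted p under 0.05 between CFA paw and saline paw in the limma fit. At an unadjusted p under 0.05 there were 88 higher genes (0.441% of those tested) and 153 lower genes (0.767%), and the smallest adjusted p was 1. Without saline paw replicate 1 again 0 genes passed, with 299 higher (1.5%) and 421 lower (2.11%) at an unadjusted p under 0.05 and a smallest adjusted p of 0.21. In 106 genes the unadjusted p was under 0.05 in both fits, 36 of them higher and 70 lower after CFA. All 3 CFA paw arrays lay above all 3 saline paw arrays for 344 genes (1.73%) and below them for 596 genes (2.99%), and these are called non-overlapping below. Of all differences, 99.3% were under 0.5 on the log2 scale in either direction, with a median standard error (SE) of 0.186. Sprr1a alone differed by more than 1. All differences below are CFA minus saline in log2 expression, so 1 stands for a 2-fold difference. Because no gene passed, genes are described by their values on each array and not as changed, and each unadjusted p below belongs to a gene whose adjusted p was 1 unless another value is given.

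Secreted peptides and ligands held some of the clearest separations between the groups. Vgf, a granin whose fragments act as neuropeptides and which is known to respond to neurotrophins and activity, had a log2 expression of 6.09, 6.03 and 6.04 after CFA and 5.44, 5.63 and 5.52 after saline. The groups did not overlap, and saline paw replicate 1 lay close to the other saline arrays. The difference was 0.52 (SE 0.152, unadjusted limma p 0.00385), or 1.437-fold, and 0.48 without saline paw replicate 1. Adcyap1, which encodes the peptide PACAP, had values of 7.08, 7.20 and 7.16 after CFA and 5.65, 6.22 and 6.85 after saline. The CFA arrays lay close together while the saline arrays were spread over more than 1 log2 unit, with the third near the CFA arrays. Its difference of 0.91 (SE 0.269, unadjusted limma p 0.00434) was 0.61 without saline paw replicate 1. Alkal2, a ligand of the receptor tyrosine kinases ALK and LTK, had values of 4.20, 4.63 and 4.56 after CFA and 3.27, 3.92 and 3.88 after saline, again without overlap (0.77, SE 0.204, unadjusted limma p 0.00193, and 0.56 without saline paw replicate 1). With quantile normalization the 3 differences were 0.35 for Vgf, whose groups then overlapped, 0.69 for Adcyap1 and 0.74 for Alkal2.

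Among 27 measured neuropeptide and granin genes, 17 had a positive difference and 4 were non-overlapping, all 4 higher after CFA (14.8% of the list, against 1.73% of all genes). After quantile normalization Adcyap1 and Vip, 2 of the 27, still did not overlap (1.17% of all genes lay above saline in both scalings). The list's median difference was 0.095, and 0.108 with 14 positive without saline paw replicate 1, against −0.011 and −0.010 for all genes. Besides Adcyap1 and Vgf these were Nts, which encodes neurotensin (3.34, 2.83 and 2.61 against 2.20, 2.38 and 2.55), and Vip, whose values of 1.84, 1.84 and 1.85 against 1.56, 1.69 and 1.60 all lay under the dim limit. The peptide genes that define peptidergic neurons did not separate. Tac1, the precursor of substance P, had values of 8.09, 8.53 and 8.31 after CFA and 7.05, 8.15 and 8.49 after saline, and its difference moved from 0.41 to −0.010 when saline paw replicate 1 was left out. Calcb moved likewise from 0.29 to −0.18. Bdnf, a neurotrophin made by peptidergic neurons, stood at 3.72, 3.70 and 3.97 after CFA and 3.84, 3.38 and 3.48 after saline, and here the difference was larger without saline paw replicate 1 (0.37, unadjusted limma p 0.0204) than with it (0.23).

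Adcyap1 and Alkal2 separated the groups in the same direction, as did Vgf and Prokr2. Cyclic AMP signalling through CREB is a known route to peptide gene expression in sensory neurons. The start regions of Adcyap1 and Alkal2 are shown here. Each runs from 250 bases before to 50 bases after a transcription start in RefSeq (GRCm38.p6), and capitals mark the CRE core TGACGT, the core of the CREB binding motif, searched on both strands together with the full CRE TGACGTCA, the AP-1 motif TGANTCA and the EGR motif GCGTGGGCG.
Adcyap1: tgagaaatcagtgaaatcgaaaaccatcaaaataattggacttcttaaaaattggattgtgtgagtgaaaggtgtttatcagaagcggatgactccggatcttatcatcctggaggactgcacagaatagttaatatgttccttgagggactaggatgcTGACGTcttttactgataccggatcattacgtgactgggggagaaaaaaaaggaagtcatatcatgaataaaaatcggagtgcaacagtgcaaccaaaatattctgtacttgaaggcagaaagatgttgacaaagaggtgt
Alkal2: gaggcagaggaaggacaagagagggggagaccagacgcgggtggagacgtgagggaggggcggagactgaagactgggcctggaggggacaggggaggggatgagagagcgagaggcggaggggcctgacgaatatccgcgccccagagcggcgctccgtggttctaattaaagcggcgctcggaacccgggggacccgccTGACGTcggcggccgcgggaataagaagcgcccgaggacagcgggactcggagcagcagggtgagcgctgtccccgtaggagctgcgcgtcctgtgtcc
The Adcyap1 region is chr17:93198767-93199066 on the plus strand, with its CRE core beginning at position 160, counted from 1 at the 5′ end. That is 91 bases before the start, and 242 bases before a second Adcyap1 start, whose region is not printed. The Alkal2 region is chr12:30884074-30884373 on the plus strand, with the core at position 202, 49 bases before the start. Among 32851 such regions 7.51% hold a CRE core, 1.79% the full CRE, 7.81% the AP-1 motif and 0.612% the EGR motif. Neither printed region matched the full CRE, AP-1 or EGR motif, and the corresponding region of Prokr2, not printed, matched none of the 4. The printed genes are thus those with a CRE core, and no region was available for Vgf. A match describes the letters only, and binding was not measured here.

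**Figure D2:**
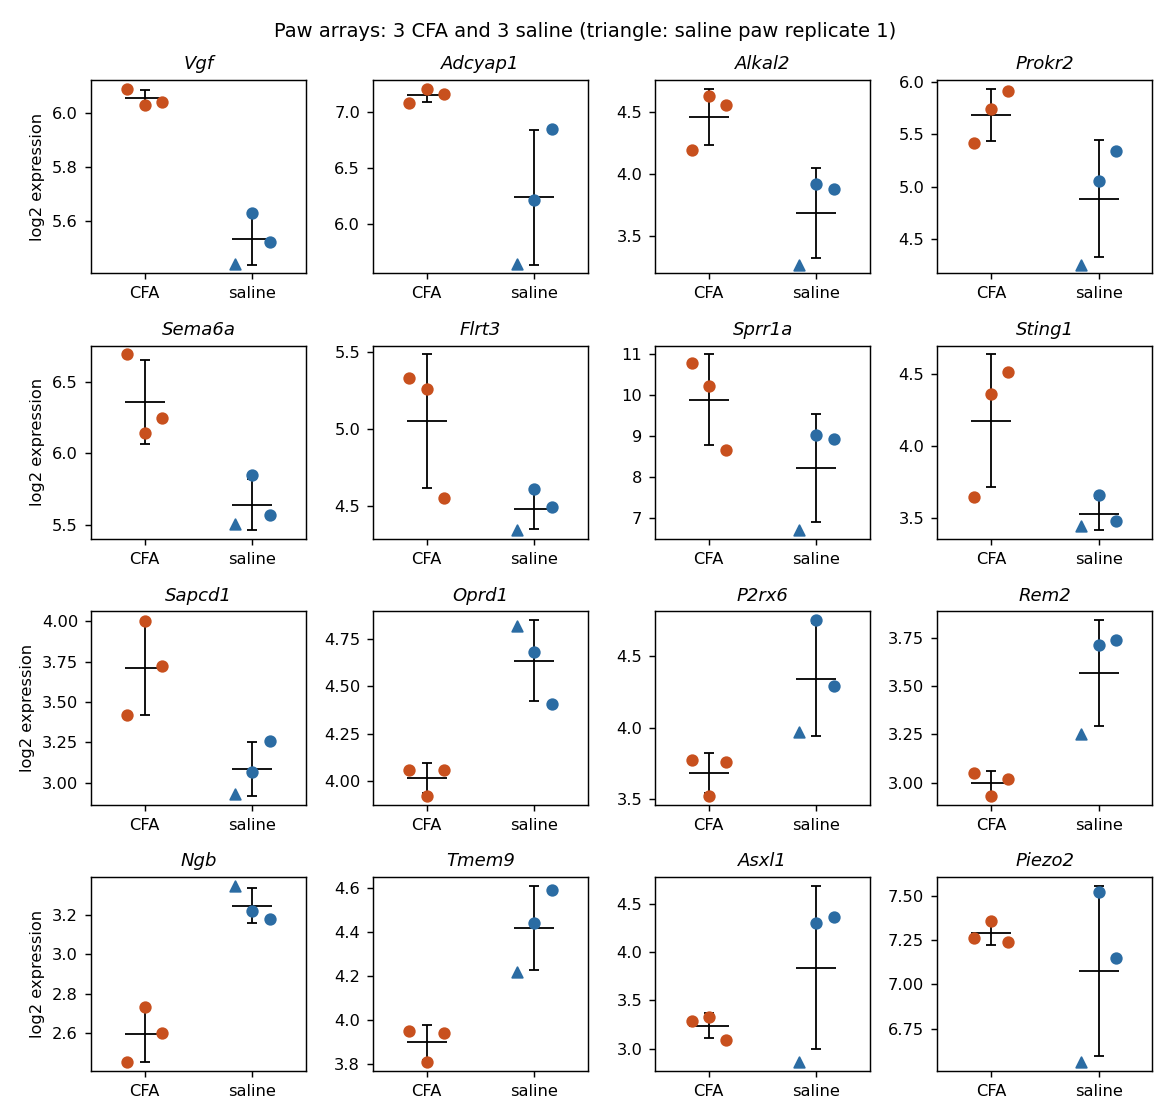
Log2 expression (vertical axis, scaled per gene) of 16 genes on the 3 CFA paw and 3 saline paw arrays, with the mean and SD in black and saline paw replicate 1 as a triangle. Vgf separates the groups without it standing apart from the other saline arrays, while for Asxl1 and Piezo2 the triangle lies well below the other saline points.

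Receptors gave separations in both directions. Prokr2, a receptor for the prokineticins, peptides that sensitize nociceptors and are made by immune cells in inflamed tissue, had values of 5.42, 5.74 and 5.91 after CFA and 4.26, 5.06 and 5.34 after saline. The groups were apart, but the lowest CFA array lay close to the highest saline array. The difference was 0.80 (SE 0.237, unadjusted limma p 0.00424), and 0.49 without saline paw replicate 1. Oprd1, the delta opioid receptor, which inhibits sensory neurons, lay the other way, at 4.06, 3.92 and 4.06 after CFA and 4.82, 4.68 and 4.41 after saline. All 3 CFA arrays were below all 3 saline arrays, by 0.62 in the mean (SE 0.176, unadjusted limma p 0.00332), and by 0.53 without saline paw replicate 1. P2rx6, a subunit of the ATP-gated P2X channels, was at 3.77, 3.52 and 3.76 against 3.97, 4.75 and 4.29, a difference of −0.65 (SE 0.217, unadjusted limma p 0.00905) and of −0.84 without saline paw replicate 1. Of the other opioid receptors, Oprm1, the mu receptor, overlapped (3.89, 4.07 and 4.62 against 4.18, 4.18 and 4.10), with a difference of 0.042 whose sign turned without CFA paw replicate 3. Oprk1, the kappa receptor, lay under the dim limit on every paw array.

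Over the 35 measured receptors for inflammatory mediators the median difference was 0.063 with 23 positive, and 0.067 with 23 positive without saline paw replicate 1, so this list moved little with that array. Ptger2, a prostaglandin E2 receptor, was its only non-overlapping member (2.86% of the list, against 1.73% of all genes higher) and lay under the dim limit on all 6 arrays. Ifnar1, a chain of the type I interferon receptor, was at 5.80, 5.58 and 6.06 after CFA and 5.18, 5.68 and 5.33 after saline (0.42, SE 0.192, unadjusted limma p 0.0472). Among 29 inhibitory and peptide receptors 15 were positive, with a median of 0.010, and 2 lay above (Oprk1 and Prokr2, 6.9% of the list against 1.73% of all genes) and 1 below (Oprd1, 3.45% against 2.99%). Npy1r, a receptor of neuropeptide Y, was at 4.15, 4.85 and 4.53 against 3.11, 4.16 and 4.29 (0.66, SE 0.263), and its difference was 0.29 without saline paw replicate 1. Grm4, an inhibitory metabotropic glutamate receptor, had values of 4.28, 4.09 and 3.84 against 4.20, 5.06 and 4.59, and differed by −0.55 with and by −0.76 without saline paw replicate 1.

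Genes of nerve injury and regeneration, which sensory neurons switch on when an axon is damaged, lay on balance above saline, by an amount that moved with saline paw replicate 1 and with CFA paw replicate 3. Of 37 measured members 33 had a positive difference (47.1% of all genes did), with a median of 0.339. Without saline paw replicate 1, 27 were positive and the median was 0.141. Non-overlapping members numbered 5 above saline (13.5% of the list, against 1.73% of all genes) and 0 below (2.99% of all genes), namely Csf1, Nts, Sdc1, Sema6a and Vip. After quantile normalization Csf1, Sdc1 and Vip, 3 of the 37, still did not overlap, while Nts and Sema6a did. Of all genes, 1.17% lay above saline in both scalings. Vip lay under the dim limit on every paw array. Measured from each gene's mean over the 6 paw arrays, the median member stood at 0.254, 0.137 and −0.011 on the CFA arrays and at −0.425, −0.029 and −0.050 on the saline arrays. CFA paw replicate 3 was thus near saline paw replicates 2 and 3 for the typical injury gene. These members and this direction were already known from an earlier look at the same arrays and are no independent support for it.

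Sema6a, a transmembrane semaphorin that guides axons, had a log2 expression of 6.69, 6.14 and 6.25 after CFA and 5.51, 5.85 and 5.57 after saline. The groups did not overlap, with a difference of 0.72 (SE 0.231, unadjusted limma p 0.00752) and of 0.65 without saline paw replicate 1. Flrt3, an adhesion protein of growing axons, showed the more common pattern, with 5.33, 5.26 and 4.55 after CFA and 4.34, 4.61 and 4.49 after saline. CFA arrays 1 and 2 stood well above saline and the third within its range, and the difference was 0.57 (SE 0.211) and 0.50 without saline paw replicate 1. Ecel1, a peptidase-like protein known to appear in damaged neurons, was at 5.16, 5.34 and 4.50 against 4.69, 4.37 and 4.38 (0.52, and 0.62 without saline paw replicate 1). Sprr1a, a growth-associated protein of regenerating axons, reached 10.79 and 10.22 on CFA arrays 1 and 2 but 8.65 on array 3, below the 9.02 and 8.94 of saline replicates 2 and 3, with 6.69 on saline replicate 1. Its difference of 1.67 had an SE of 0.847 and was 0.91 without saline paw replicate 1. Gal, which encodes galanin, likewise fell from CFA array 1 to array 3 (5.85, 5.31 and 4.24 against 2.75, 4.63 and 5.33). So did Atf3, the injury transcription factor (7.59, 6.88 and 6.37 against 6.01, 6.76 and 6.89). In Gal and Atf3 only CFA array 1 lay above every saline array, and without saline paw replicate 1 their differences were 0.16 and 0.12. Csf1, the cytokine by which injured neurons signal to microglia, was at 4.09, 4.48 and 3.91 against 3.89, 3.58 and 3.82 with only a narrow gap at the nearest arrays, and Sdc1, a heparan sulfate proteoglycan, was at 3.87, 4.14 and 3.92 against 3.73, 3.56 and 3.56.

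**Figure D3:**
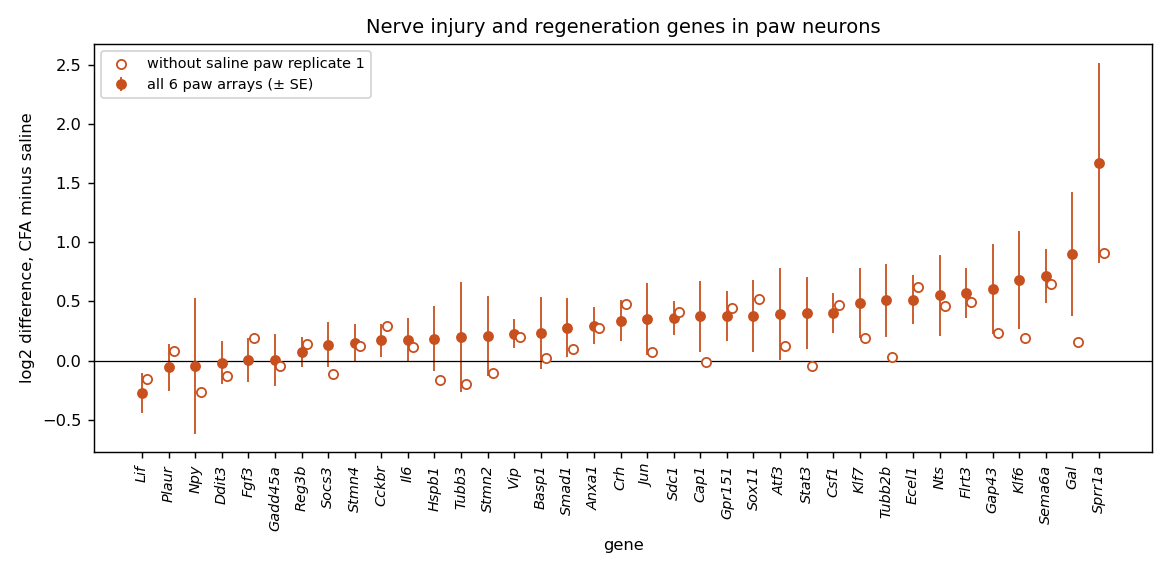
Log2 difference between CFA paw and saline paw (vertical axis) for the 37 measured nerve injury and regeneration genes, ordered by size (horizontal axis). Filled points with SE bars use all 6 paw arrays and open points leave out saline paw replicate 1; 33 filled and 27 open points lie above 0, and Sprr1a falls from 1.67 to 0.91.

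Of 32 activity-dependent genes 4 were non-overlapping, all above saline (12.5% of the list, against 1.73% of all genes). After quantile normalization Egr1 and Egr2, 2 of the 32, still did not overlap (1.17% of all genes lay above saline in both scalings), while Vgf and Nptx2 did. The median difference was 0.094 with all arrays and 0.013 without saline paw replicate 1. Besides Vgf these were Egr1 and Egr2, zinc finger transcription factors induced rapidly by stimulation, and Nptx2, a secreted pentraxin that clusters glutamate receptors. Egr1 was at 7.22, 7.40 and 7.66 after CFA and 6.28, 7.21 and 7.05 after saline, so that the lowest CFA and the highest saline array nearly met. Egr2, which Schwann cells also express, was at 5.19, 4.79 and 5.21 against 4.33, 4.70 and 4.65 (0.50, unadjusted limma p 0.0357). Nptx2 was at 5.95, 5.96 and 6.32 against 5.72, 5.80 and 5.62 with a difference of 0.36, and of 0.37 without saline paw replicate 1, 0.20 after quantile normalization and 0.24 without CFA paw replicate 3. Summed over the 12 Schwann cell markers on the linear scale, the level was 1064.4 to 1251.9 in CFA paw and 558.7 to 1150.8 in saline paw, and the part of these cells in the Egr2 value was not tested.

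Sting1, the sensor of cyclic dinucleotides that drives type I interferon, was at 3.65, 4.36 and 4.51 after CFA and 3.45, 3.66 and 3.48 after saline. Arrays 2 and 3 of CFA lay above every saline array and array 1 just below the highest of them, at a difference of 0.65 (SE 0.196, unadjusted limma p 0.00499) and of 0.61 without saline paw replicate 1. Of 33 measured interferon response and antigen presentation genes 24 were positive with all arrays (median 0.158) and 23 without saline paw replicate 1 (median 0.067). Ifi35, an interferon-induced protein, was the list's only non-overlapping member, at 3.87, 3.88 and 3.90 against 3.61, 3.65 and 3.78 (3.03% of the list, against 1.73% of all genes above). Oasl2, an interferon-induced antiviral protein, was at 7.15, 6.65 and 6.77 against 5.54, 6.54 and 6.78, and the difference of 0.57 became 0.20 without saline paw replicate 1. Xaf1 stood out on a single CFA array (3.97, 2.72 and 3.02 against 2.65, 2.72 and 2.61). Samsn1, a signalling adaptor of immune cells, was at 3.38, 3.40 and 3.30 against 2.56, 3.00 and 3.08, without overlap.

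The 33 measured cytokine and chemokine genes had a median of −0.056, with 12 positive, and one of 0.028, with 20 positive, without saline paw replicate 1. Of the 33, 14 had a group mean above the dim limit. Non-overlapping were Csf1 above (3.03% of the list, against 1.73% of all genes) and Ptges and Ptgs2 below (6.06%, against 2.99%). Ptges and Ptgs2 encode enzymes of prostaglandin E2 synthesis. Ptges was at 2.64, 2.67 and 2.80 after CFA and 3.20, 3.19 and 2.86 after saline (−0.38, SE 0.125, unadjusted limma p 0.00884, and −0.32 without saline paw replicate 1). Ptgs2 was at 2.40, 2.15 and 2.23 against 2.44, 2.45 and 2.44, all near or under the dim limit, and its groups overlapped after quantile normalization.

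Ion channels, among them the mechanosensitive proteins named in the title of the series, mostly overlapped between the groups. Of 34 measured mechanosensitive channels and partners 17 were positive and 17 negative, with a median of −0.003. Without saline paw replicate 1 the median was −0.102 with 11 positive, and −0.019 after quantile normalization. The list's only non-overlapping member was Scnn1b, an epithelial sodium channel subunit, at 2.00, 2.00 and 2.08 against 2.56, 2.14 and 2.20, mostly under the dim limit. That is 2.94% of the list, against 2.99% of all genes below. Piezo2, the main channel of light touch, was at 7.26, 7.36 and 7.24 after CFA and 6.56, 7.52 and 7.15 after saline, where the CFA values fell between the saline ones. The difference was 0.21 with a 95% confidence interval of −0.42 to 0.85, and −0.043 (−0.68 to 0.59) without saline paw replicate 1, so a change of up to about that size in either direction was not resolved. Piezo1 differed by 0.0064 (−0.52 to 0.54), with its 3 probe sets at 0.01, −0.04 and −0.01 and its sign changing with quantile normalization. Asic3, an acid-sensing channel of muscle and skin afferents, was at 7.86, 7.54 and 7.54 against 6.56, 7.80 and 8.23, and its difference of 0.12 (−0.63 to 0.86) turned to −0.37 (−0.93 to 0.19) without saline paw replicate 1, and was also negative after quantile normalization (−0.092) and when the SD of each array entered the fit (−0.014).

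Most channels of heat, chemical and action potential signalling overlapped as well. Of 29 acid, heat and chemical transduction channels P2rx6, given above, was the non-overlapping member (3.45% of the list, against 2.99% of all genes below). Trpv1, the heat and capsaicin channel, was at 6.78, 6.83 and 7.02 after CFA and 5.40, 6.80 and 7.02 after saline. Only saline paw replicate 1 lay low, and the difference of 0.47 (−0.27 to 1.20) became −0.037 (−0.56 to 0.48) without it. Trpa1, the irritant channel, differed by 0.38 with and 0.12 without that array, and P2rx3, the ATP-gated channel of nociceptors, by 0.37 and −0.022. The nociceptor sodium channels Scn9a, Scn10a and Scn11a differed by 0.28, 0.38 and 0.21 with all arrays and by −0.15, −0.15 and −0.22 without saline paw replicate 1, and Scn11a was also negative after cyclic loess (−0.021). Over the 15 measured sodium channel genes, 11 were positive with all arrays (median 0.145). Without saline paw replicate 1, 2 were positive (median −0.146, and −0.048 after quantile normalization). Potassium channels had a median of 0.005 with 25 of 48 positive. Without saline paw replicate 1 it was −0.111 with 13 positive, and −0.003 after quantile normalization. The calcium-activated channel Kcnn2 was the potassium channel with the smallest p (3.06, 3.39 and 2.99 against 3.33, 3.50 and 3.92, −0.44).

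Rem2 encodes a small GTPase that lowers the current of voltage-gated calcium channels, and had a log2 expression of 3.05, 2.93 and 3.02 after CFA and 3.25, 3.71 and 3.74 after saline. All CFA arrays lay below all saline arrays, by 0.57 in the mean (SE 0.157, unadjusted limma p 0.00274), and the difference was larger, at −0.72 (unadjusted limma p 0.000234), without saline paw replicate 1. Cacnb1, a calcium channel beta subunit, lay the other way but overlapped by saline paw replicate 3 (5.40, 5.07 and 5.30 against 4.46, 4.70 and 5.17). Over 22 calcium and HCN channel genes the median was −0.008, and Rem2 was the only non-overlapping member (4.55% of the list, against 2.99% of all genes below).

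Other genes with the smallest p lay outside these groups. Sapcd1 had the smallest p of the named genes with all arrays, at 3.42, 4.0 and 3.72 after CFA and 2.93, 3.07 and 3.26 after saline (0.63, SE 0.153, unadjusted limma p 0.00102, and 0.55 without saline paw replicate 1). Ngb, neuroglobin, an oxygen-binding protein of neurons, was at 2.45, 2.73 and 2.60 against 3.35, 3.22 and 3.18. Its groups were far apart for their spread (−0.66, SE 0.187, unadjusted limma p 0.00326, and −0.61 without saline paw replicate 1). Tmem9 was at 3.95, 3.81 and 3.94 against 4.22, 4.44 and 4.59 (−0.52, and −0.62 without saline paw replicate 1). Dgkd, a diacylglycerol kinase, was at 3.26, 3.01 and 3.35 against 3.75, 3.67 and 3.89 (−0.56 and −0.57). Clybl and Aldh4a1, both mitochondrial enzymes, differed by −0.44 and −0.43, and Enoph1, an enzyme of methionine salvage, by −0.55, each without overlap and with a value between −0.40 and −0.53 when saline paw replicate 1 was left out. Elobl and Pcsk6, which differed by −0.88 and −0.50, lay under the dim limit on all CFA arrays. Dbpht2, at 5.40, 5.71 and 6.22 against 4.0, 5.38 and 5.21, and Epc2, at 4.70, 4.66 and 4.19 against 3.20, 4.18 and 4.15, were non-overlapping with differences of 0.91 and 0.67 that became 0.48 and 0.35 without saline paw replicate 1.

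Without saline paw replicate 1, the genes with the smallest p were mostly genes in which that array lay among or beyond the CFA arrays. Asxl1, a chromatin regulator that works with polycomb proteins, was at 3.29, 3.33 and 3.09 after CFA, 4.30 and 4.36 on saline arrays 2 and 3, and 2.86 on saline array 1. Its difference was −1.09 without that array, with the smallest adjusted limma p of all genes (0.21), and −0.60 with it. Igsf21, a synaptic adhesion protein, differed by −0.75 without and −0.53 with that array, and Hnmt, which inactivates histamine, by −0.89 and −0.48. Chrac1, a chromatin remodelling subunit, differed by −0.69 and −0.42, Tdp1, a DNA repair enzyme, by −0.53 and −0.34, and Necab3 by −0.76 and −0.34. For Myo18b the difference was 0.57 without saline paw replicate 1 and 0.19 with it (8.34, 8.17 and 8.35 against 8.87, 7.62 and 7.82), and it turned negative after cyclic loess (−0.099). In these genes, leaving the array in or out decides whether the groups overlap.

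Saline paw replicate 1 also set the direction of whole lists. Cytoskeleton and axonal transport genes had a median of 0.160 with 31 of 34 positive, and of −0.161 with 6 positive without it. Ribosomal protein genes went from 0.133 with 25 of 36 positive to −0.158 with 3, and synaptic vesicle genes from 0.130 with 24 of 33 to −0.167 with 5. Mitochondrial respiratory chain genes went from 0.029 with 26 of 43 positive to −0.285 with 2. After quantile normalization, which gives every array the same range, these 4 medians were 0.000, 0.017, −0.015 and −0.070 with all 6 paw arrays. Without saline paw replicate 1 they were then −0.013, −0.016, −0.011 and −0.102, smaller falls than in the values as deposited. The part of the array range in these falls was not tested. Peptidergic nociceptor markers had the largest median of all lists, 0.435 with 15 of 17 positive. Without saline paw replicate 1 it was −0.010 with 8 positive, and 0.119 after quantile normalization. Large myelinated and proprioceptor markers went from −0.015 to −0.271, with 10 and then 4 of 22 positive. After quantile normalization the value without saline paw replicate 1 was −0.083. Of the 35 lists, 17 had a median of the other sign when that array was left out.

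**Figure D4:**
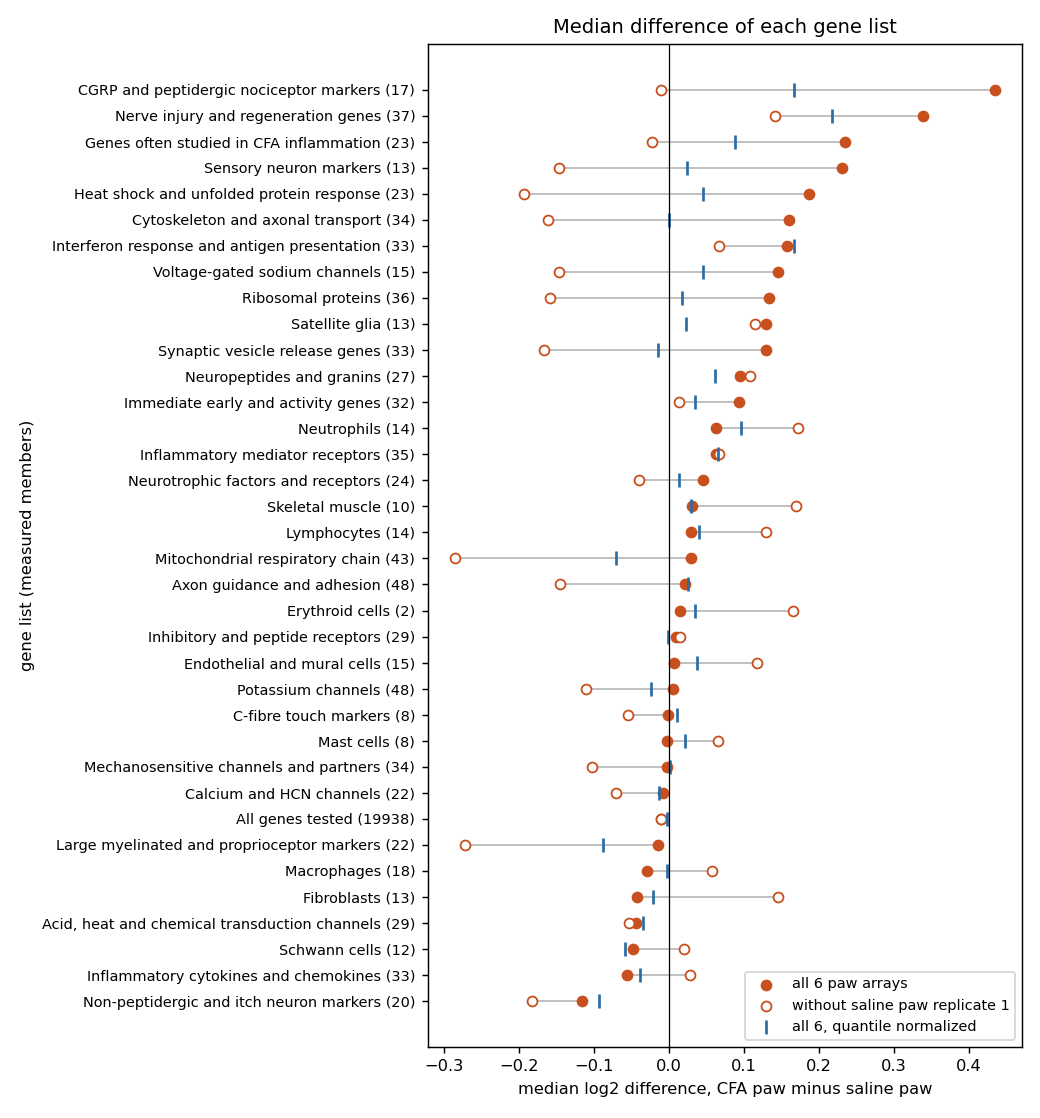
Median log2 difference between CFA paw and saline paw (horizontal axis) of each gene list, with its number of measured members, and of all genes tested (vertical axis). Filled points use all 6 paw arrays, open points leave out saline paw replicate 1 and blue ticks use all 6 arrays after quantile normalization; the injury list is positive in all 3 (0.339, 0.141 and 0.217), whereas cytoskeleton genes go from 0.160 to −0.161.

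Defining markers of immune cells were mostly dim in the sorted samples. Of 18 macrophage markers 14 lay under the dim limit, among them Adgre1, Aif1, Cx3cr1 and Itgam, and their summed linear level was 84.5 to 89.6 in CFA paw and 77.8 to 99.3 in saline paw. Csf1r, the receptor for the cytokine encoded by Csf1, was at 2.80, 2.60 and 2.80 against 2.96, 2.47 and 2.90. Neutrophil markers were under the dim limit in 12 of 14 cases, including Ly6g and S100a8, with sums of 61.0 to 63.6 and 55.3 to 72.7, and lymphocyte markers in 9 of 14, with 77.9 to 80.1 and 72.1 to 94.2. In each of these lists the saline range enclosed the CFA range only through saline paw replicate 1. Saline paw replicates 2 and 3 stood at 77.8 and 83.7 for macrophages, 55.3 and 57.1 for neutrophils and 72.3 and 72.1 for lymphocytes, below every CFA array. This was not particular to immune cells. The mast cell, erythroid, fibroblast (169.5 and 175.5 against 185.5 to 205.9) and skeletal muscle lists (93.8 and 98.1 against 103.0 to 110.3) showed it too. The endothelial and mural list did not (110.3 and 107.3 against 110.1 to 113.9). The part of immune cells in the results was not tested. Satellite glia markers were present throughout, with sums of 2493.7 to 2776.7 in CFA paw and 1588.4 to 3313.3 in saline paw, the low end again being saline paw replicate 1. Of the 13 markers 9 were positive, with a median of 0.130, and 7 without that array, with a median of 0.115. Cdh19 and Ptn were non-overlapping above saline (15.4% of the list, against 1.73% of all genes), but the mean of Cdh19 over the paw arrays lay under the dim limit. After quantile normalization 1 of the 13 still did not overlap (1.17% of all genes lay above saline in both scalings). The glial genes Fabp7 and Apoe differed by 0.13 and 0.093, and both turned negative without that array (−0.27 and −0.18) and after quantile normalization (−0.083 and −0.12). Summed sensory neuron markers were at 6366.6 to 6534.5 in CFA paw and at 3681.5, 7361.5 and 6754.6 in saline paw, so that saline paw replicates 2 and 3 lay above every CFA array and replicate 1 below. In sorted bulk samples a difference in the share of a cell type and a difference in RNA per cell cannot be told apart.

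The CFA difference in paw neurons was set against that in muscle neurons to test whether they were unlike. The muscle neurons were CGRP-negative, so tissue and CGRP status cannot be told apart in this test. No gene passed in limma, with 325 genes (1.63%) at an unadjusted p under 0.05, a smallest adjusted p of 1 and a median SE of 0.263. Adcyap1 differed by 0.91 after CFA in paw and by −0.70 in muscle, where its mean was 3.91 after CFA and 4.60 after saline, a difference between the effects of 1.60 (SE 0.380, unadjusted limma p 0.000808) and of 1.31 without saline paw replicate 1. Oprd1 was lower after CFA in paw and 0.19 higher in muscle (−0.81 between the effects, unadjusted limma p 0.00589), and Sema6a 0.72 higher in paw and 0.29 lower in muscle (1.01, unadjusted limma p 0.00785). For Vgf the muscle difference was −0.021 and that between the effects 0.54 (unadjusted limma p 0.0237). Alkal2 and Prokr2 differed by 0.77 and 0.80 in paw and by 0.091 and −0.15 in muscle, and none of these contrasts passed over all genes.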

How the data were processed

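The values deposited by the authors are on a log2 scale, 1 for each probe set, from 15 Affymetrix whole-transcript arrays, matched to samples by name. Per the submitters' processing notes the authors used RMA and Partek, with no version given; the log base was taken from the range of the values. Values were used as deposited. Of 35556 probe sets, 21789 had 1 gene symbol, 1621 had several and 12146 had none, and only the first were used. Of these 21698 matched RefSeq and 0 symbols were updated. For 999 genes with more than 1 probe set that with the highest mean was kept, leaving 19938 genes. The number of arrays limits the precision.

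Groups came from sample titles. A model of 5 group means was fitted in R 4.3.3 with limma 3.58.1 to all 15 arrays (10 residual and 4.325 prior degrees of freedom), and without saline paw replicate 1 to 14 arrays (9 and 5.356), with empirical Bayes moderation, two-sided tests and Benjamini-Hochberg adjustment over all genes at 0.05. Array-level values were compared with an exact permutation test, whose smallest p with 3 against 3 arrays is 0.1 (scipy 1.17.1). The code was tested on simulated data. The 35 gene lists name 820 genes, 735 of them measured, and are described by counts and medians only.

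The named genes are those with the 20 smallest p in either fit, the 8 largest non-overlapping differences in each direction above the dim limit, the members of each neuron list with the smallest p (at most 4 a list), and a fixed set of peptide, channel, injury and marker genes, without predicted and receptor-cluster loci. Egr1, Ifi35, Ptger2, Ptgs2, Cdh19, Ptn and, in the closing section, Npy, Glrx3 and Calb2 fall outside this rule and were chosen after their values were seen. The members, lists and tests were chosen with earlier results of these data known. The alternatives were other scalings, the array SD as a covariate, a dim filter, only the paw arrays, array weights, another variance prior, the mean of all probe sets, an adjusted p under 0.10, a replicate block, and the omission of each array.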

Additional observations from a re-analysis of the deposited data

Results flagged for a closer look

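In Dgkd, Strip2 and Scnn1b every CFA array lay on one side of every saline array in the paw and on the opposite side in the muscle. Of all genes, 1.73% lay above and 2.99% below saline in paw, and 3.63% above and 4.1% below in muscle. The share of all genes on opposite sides in the 2 tissues is not given here, so these genes are examples and not a count. Dgkd was lower after CFA in paw (3.21 against 3.77) and higher in muscle (3.69 against 3.32), a difference between the effects of −0.931 (SE 0.255, unadjusted limma p 0.00251, adjusted p 1; −0.94 without saline paw replicate 1). Strip2 was higher after CFA in paw (2.67 against 2.24) and lower in muscle (2.18 against 2.31). Its saline paw mean and its muscle means lay under the dim limit, so its direction in muscle is not reliable. The difference between its effects was 0.562 (unadjusted limma p 0.00386, adjusted p 1), and 0.48 without saline paw replicate 1. Scnn1b, near the dim limit, differed by −0.364 (unadjusted limma p 0.076, adjusted p 1; −0.24 without saline paw replicate 1).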

How the results depend on the processing

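For CFA paw against saline paw 0 genes passed in limma under every alternative except array weights, with all arrays and without saline paw replicate 1, and at an adjusted p under 0.10 as well. Leaving out each array in turn gave 0 calls each time, with unadjusted counts of 174 without CFA paw replicate 2 to 720 without saline paw replicate 1. The replicate block gave 0 calls in both fits. Deviations of same-numbered paw arrays from their group means correlated at −0.238, 0.185 and −0.327. Within a group of 3 arrays such deviations cancel each other, so these values cannot decide whether the replicate numbers pair the samples. Array weights called 125 genes, 32 higher (0.16% of all genes) and 93 lower (0.466%). Of these 125, 39 were non-overlapping over the 6 arrays, as were 4.71% of all genes in either direction. The weight was 0.148 for saline paw replicate 1 and 7.18 for saline paw replicate 3, so that these calls lean on 1 saline array. Without saline paw replicate 1 array weights called 1 gene, Asxl1 (−1.06, adjusted p 0.00889). The test of the difference between paw and muscle gave 0 calls after quantile normalization and without saline paw replicate 1.

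Signs of the difference turned for some genes under an alternative. After quantile normalization the values were −0.0099 for Piezo1, −0.092 for Asic3, −0.083 for Fabp7 and −0.12 for Apoe, and after cyclic loess −0.021 for Scn11a, −0.099 for Myo18b, −0.22 for Fabp7 and −0.28 for Apoe. With the SD of each array in the fit they were −0.014 for Asic3, −0.013 for Fabp7, −0.040 for Apoe and 0.0011 for Csf1r, and with the mean of all probe sets −0.016 for Piezo1 and −0.038 for Myo18b. Array weights gave −0.098 for Tac1, −0.21 for Calcb, −0.50 for Asic3, −0.11 for Trpv1, −0.16 for Scn9a, −0.12 for Scn10a, −0.11 for Scn11a and −0.12 for Apoe. Leaving out each array in turn, the difference ran from −0.010 to 0.71 for Tac1, −0.18 to 0.56 for Calcb, −0.17 to 0.19 for Oprm1, −0.022 to 0.60 for P2rx3, −0.11 to 0.21 for Piezo1, −0.043 to 0.44 for Piezo2, −0.37 to 0.47 for Asic3, −0.037 to 0.77 for Trpv1, −0.15 to 0.53 for Scn9a, −0.15 to 0.65 for Scn10a, −0.22 to 0.48 for Scn11a, −0.055 to 0.57 for Myo18b, −0.27 to 0.49 for Fabp7, −0.18 to 0.26 for Apoe and −0.20 to 0.046 for Csf1r. The cause was not tested. Of the 35 list medians, 7 had another sign after quantile normalization, 5 with the SD of each array in the fit, and 17 without saline paw replicate 1. Precision is limited to a median SE of 0.186, and genes under the dim limit have no reliable order.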

Other observations

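Within CFA paw, the arrays differed among themselves in a number of genes. CFA paw replicate 3 had the smallest SD over genes of these arrays (1.659, against 1.735 and 1.712). The share of all genes that were lowest on it is not given here, so the next count is no trait of its genes. Of the 15 genes with the largest SD within CFA paw, 12 were lowest on replicate 3. Among them were Npy, which encodes neuropeptide Y (6.08, 4.77 and 3.65, against 4.43, 5.07 and 5.13 after saline), Sprr1a, Gal, Glrx3, an iron-sulfur cluster protein (4.87, 4.11 and 2.43), and the calcium-binding proteins Pvalb, a marker of proprioceptors (5.30, 4.19 and 3.74, against 4.95, 5.11 and 4.96), and Calb2 (3.33, 3.38 and 2.01). Calb1, also a calcium-binding protein, was high on CFA array 1 alone (5.26, 4.0 and 4.15, against 3.85, 5.70 and 5.55), and differed by −0.56 with and −1.15 without saline paw replicate 1. Measured from each gene's mean over the 6 paw arrays, the median of 22 large myelinated and proprioceptor markers was 0.229, −0.055 and −0.164 on CFA arrays 1 to 3, and 0.410 and 0.149 on saline arrays 2 and 3. These genes were chosen after their values were seen.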
